A study of Homo sapiens with 6 samples.

Results

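The SR proteins and the heterogeneous nuclear ribonucleoproteins (hnRNPs) are the 2 large families of RNA-binding proteins that help decide which exons stay in a messenger RNA. Here they were taken as every protein-coding gene of the deposited table whose symbol begins with SRSF and a digit, or with HNRNP. The rule gave 34 of 27420 listed genes, 11 SR protein genes and 23 hnRNP genes. RNA-seq was done on A673 and SKNMC, established Ewing sarcoma lines (the sample titles spell the second SKMNC), in which a fusion of EWSR1 with an ETS gene drives the disease. For 6 h each line received THZ1 at 50 nM, THZ1 at 200 nM or only the vehicle DMSO, which gave 6 libraries, 1 per condition. THZ1 is a covalent inhibitor of CDK7, a kinase of the general transcription factor TFIIH that phosphorylates the tail of RNA polymerase II, and the study used the low dose for partial and the high dose for strong loss of that mark. The files hold FPKM, a fragment count per transcript length and per library size, so levels can be set side by side between genes and the read depth is unknown.

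SR proteins carry RNA-recognition motifs and a tail rich in arginine and serine, bind exonic enhancers and help recruit U1 and U2 snRNP to splice sites. The hnRNPs coat nascent transcripts, and several of them oppose exon inclusion at sites that SR proteins favour, SRSF1 and HNRNPA1 being the textbook pair. Many genes of both families limit their own messenger RNA through poison exons, which gene-level FPKM does not resolve, so no isoform was measured here.

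With 1 library per condition no difference could be set against a replicate error within a line. Folds within a line are log2 of (FPKM + 1) over (FPKM + 1) with DMSO, given with no p-value, and genes above 1 FPKM with DMSO in that line are called active. In a second step both lines together were fitted with limma, the cell line as a block, and genes with an adjusted p under 0.05 (Benjamini-Hochberg over 11503 genes) are said to have risen or fallen. The error of that fit comes from differences in response between the lines, which are no spread between cultures. With 2 residual and 8.51 prior degrees of freedom, it rests more on a trend over all genes than on each gene alone. All 8 Ewing sarcoma markers examined, among them CD99 and NR0B1, were present in every library, between 3.60 and 763 FPKM. PTPRC, a leukocyte marker, stood at 7.90 to 13.1 FPKM in the SKNMC libraries and at 0.0291 or less in A673, and the other 3 markers of foreign cell types that matched stayed at 0.826 FPKM or less. What this difference in PTPRC has to do with the differences between the lines below was not tested. In bulk RNA, a loss in some of the cells and a smaller loss in every cell cannot be told apart.

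Both families were among the strongly expressed genes of these cells. All 11 SR protein genes and 22 of the 23 hnRNP genes were active in both lines. The exception was HNRNPCL1, an intronless relative of HNRNPC, at 0.396 to 0.618 FPKM over the 6 libraries. With DMSO, the SR proteins ran from SRSF12 (3.10 FPKM in A673 and 9.97 in SKNMC) to SRSF2 (303 and 283 FPKM), and the hnRNPs from HNRNPA1L2 (3.39 and 5.16 FPKM) to HNRNPA1 (938 and 1147 FPKM). HNRNPA1, HNRNPA2B1, HNRNPC and HNRNPK, which package newly made RNA or bind its pyrimidine-rich stretches, held the top 4 places in both lines. Summed up, SR proteins held 0.305% of the listed FPKM in A673 and 0.326% in SKNMC with DMSO, and hnRNPs 1.15% and 1.23%.

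**Figure D1:**
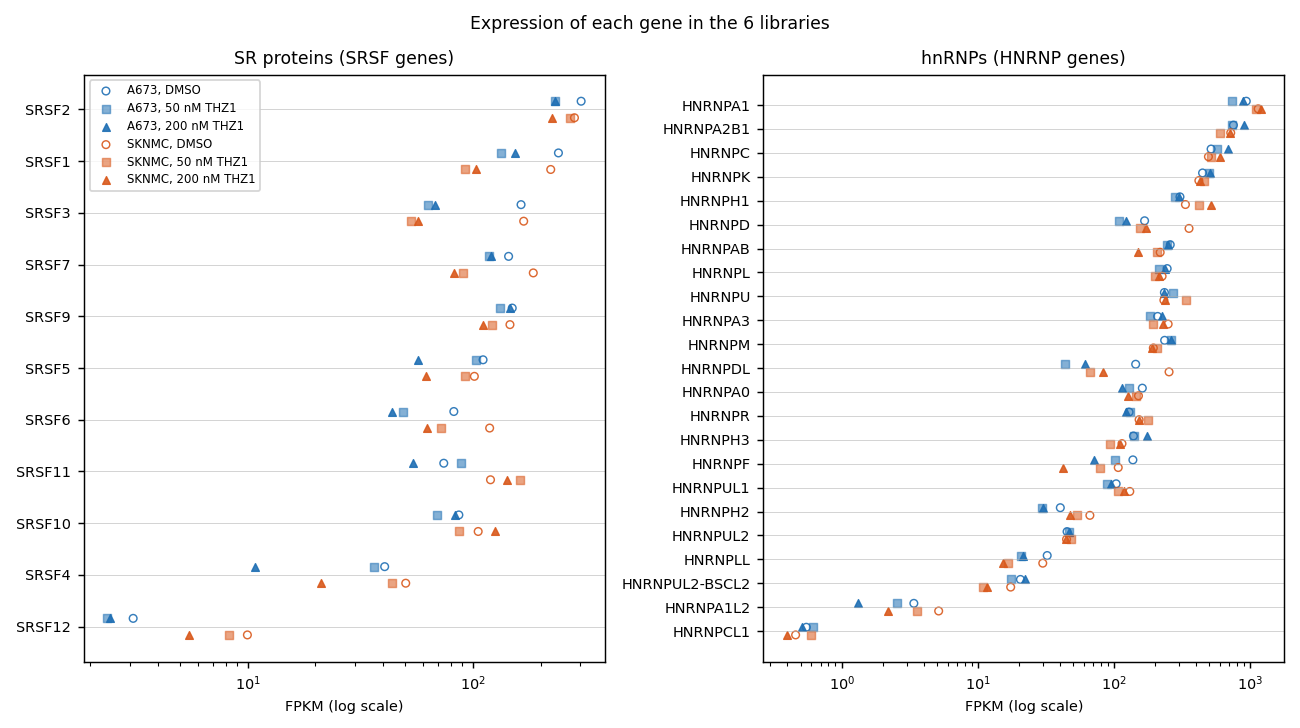
FPKM (log axis) of each SR protein gene (left) and each hnRNP gene (right) in the 6 libraries, 1 point per library, blue for A673 and orange for SKNMC, open circles for DMSO, squares for 50 nM and triangles for 200 nM THZ1. The DMSO circles of SRSF3, SRSF1 and HNRNPDL lie to the right of both THZ1 points in both lines, while the points of HNRNPK and HNRNPL lie close together.

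Among the SR proteins, 4 of 11 fell at 50 nM and 8 of 11 at 200 nM over both lines, and none rose. Over all genes, 33.5% fell and 4.86% rose at 50 nM, and 47.6% fell and 5.91% rose at 200 nM. The count of SR proteins that fell was thus close to the background at 50 nM (36.4%) and above it at 200 nM (72.7%). SRSF1, SRSF3, SRSF6 and SRSF7 fell at both doses, and SRSF2, SRSF4, SRSF5 and SRSF12 were added at the high dose. The direction depends on the scaling: when libraries were divided by their 75th percentile, 3 SR proteins fell and 1 rose at 50 nM, and 4 fell and 2 rose at 200 nM. Of 11499 genes, 2427 fell and 1940 rose at 50 nM under that scaling, and 3126 fell and 2867 rose at 200 nM.

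SRSF3 (hg19 chr6:36562144-36573377, plus strand), a small SR protein that also couples splicing to mRNA export, stood at 164, 63.5 and 67.9 FPKM in the A673 libraries (DMSO, then 50 nM, then 200 nM) and at 168, 53.0 and 57.1 FPKM in SKNMC. Every THZ1 library lay well below both DMSO libraries, and the doses hardly differed. The fitted log2 fold change was -1.50 ± 0.13 (SE) at 50 nM (adjusted p = 3.67e-05) and -1.40 ± 0.13 at 200 nM (adjusted p = 1.3e-05).

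SRSF1 (chr17:56080720-56084707, minus strand), the founding SR protein, which promotes exon inclusion and acts as an oncoprotein when raised, stood at 240.2, 134 and 154 FPKM in A673 and at 222, 92.8 and 104 FPKM in SKNMC. Again no THZ1 library reached either DMSO library. Its log2 fold change was -1.04 ± 0.13 at 50 nM (adjusted p = 0.000202) and -0.86 ± 0.13 at 200 nM (adjusted p = 0.000299). Part of the SRSF1 locus is annotated a second time on the same strand as RP11-159D12.5, which stood at 0.477, 3.90 and 4.46 FPKM in A673 and at 0.456, 1.95 and 4.61 in SKNMC. Of the 100-base windows of SRSF1 transcripts, 30.3% also occur in transcripts of other annotated genes. The second entry held under 5 FPKM in every library, and how reads were divided between the entries was not tested.

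SRSF4 (chr1:29474254-29508499, minus strand), one of the larger SR proteins, with a long arginine-serine tail, behaved in another way. Its level was 40.6, 36.5 and 10.8 FPKM in A673 and 50.4, 43.5 and 21.2 FPKM in SKNMC, so both libraries at 50 nM stayed near DMSO and both at 200 nM lay far below. The log2 fold change was -0.18 ± 0.18 at 50 nM (adjusted p = 0.464) and -1.52 ± 0.18 at 200 nM (adjusted p = 5.29e-05), and the step between the doses was -1.34 ± 0.18 (adjusted p = 0.000514). SRSF5, a relative of SRSF4 and SRSF6, had the same form, with 111, 103 and 57.3 FPKM in A673 and 102, 92.8 and 61.7 FPKM in SKNMC. Its log2 fold change was -0.12 ± 0.13 at 50 nM (adjusted p = 0.489) and -0.83 ± 0.13 at 200 nM (adjusted p = 0.000291), and the step between doses was -0.71 ± 0.13 (adjusted p = 0.0026). The call for that step was lost without the A673 library at 50 nM, where the estimate was -0.64. SRSF6, the third of this group, was already lower at the low dose, with 82.4, 48.8 and 43.9 FPKM in A673 and 119, 72.4 and 62.8 FPKM in SKNMC. Its log2 fold change was -0.72 ± 0.12 at 50 nM (adjusted p = 0.00107) and -0.90 ± 0.12 at 200 nM (adjusted p = 0.000139), almost equal in the lines.

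SRSF7, which also takes part in mRNA export, split the lines. In SKNMC it went from 186 FPKM to 90.5 and 82.7 FPKM, and in A673 from 144 FPKM to 117 and 121 FPKM. The fit called it lower at both doses (-0.66 ± 0.19, adjusted p = 0.0172, and -0.71 ± 0.19, adjusted p = 0.00833). These calls rested on SKNMC: without the SKNMC DMSO library the estimates were -0.25 and -0.30, without the SKNMC 50 nM library the low-dose estimate was -0.52, without the SKNMC 200 nM library the high-dose estimate was -0.44, and none of these passed.

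SRSF10 and SRSF11 had the highest mean change of both lines among SR proteins at 200 nM, though in A673 alone SRSF11 was not among the highest. SRSF10, a splicing repressor when dephosphorylated, stood at 86.7, 69.0 and 83.6 FPKM in A673 and at 106, 86.9 and 125 FPKM in SKNMC, so the low-dose library was the lowest in both lines. It was higher at 200 nM than at 50 nM (0.40 ± 0.13, adjusted p = 0.0463), a call that was lost without either 50 nM library (0.45 without that of A673 and 0.35 without that of SKNMC) and without the SKNMC 200 nM library (0.26). Its change against DMSO at 200 nM was 0.10 with an interval from -0.19 to 0.38. SRSF11, a protein of the arginine-serine type that joins early spliceosome complexes, stood at 74.3, 89.1 and 54.3 FPKM in A673 and at 120, 162 and 142 FPKM in SKNMC. The low-dose library was the highest in both lines, but neither change passed (0.35 ± 0.16, adjusted p = 0.113, and -0.10 ± 0.16, adjusted p = 0.623).

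Of the remaining SR proteins, SRSF2, whose exon-enhancer binding is altered in some leukaemias, fell at 200 nM (-0.36 ± 0.11, adjusted p = 0.0182), as did SRSF12, the least expressed (-0.50 ± 0.19, adjusted p = 0.0497). Both calls were fragile. That of SRSF2 was lost without the A673 DMSO library (-0.27), without the SKNMC 200 nM library (-0.31) or without either 50 nM library, and its sign turned to 0.13 under the 75th percentile. That of SRSF12 was lost without the SKNMC DMSO library (-0.38), the SKNMC 200 nM library (-0.24) or either 50 nM library, and also with a pseudocount of 0.1 (-0.58), a common sum (-0.49) or the 75th percentile (-0.09). SRSF9, close kin of SRSF1, was at 110.5 to 150 FPKM throughout (-0.22 ± 0.13 at 50 nM and -0.21 ± 0.13 at 200 nM, adjusted p = 0.183 and 0.176). Of its transcript windows, 35.8% also occur in other genes of the GENCODE annotation, nearly all of them in GATC (35.2%). In all, 4 of the 8 calls at 200 nM (SRSF1, SRSF3, SRSF4, SRSF6) and 3 of the 4 at 50 nM (SRSF1, SRSF3, SRSF6) held without any single library and under all 3 other scalings. With no filter on low values, SRSF3 and SRSF6 at 200 nM were the only SR calls against DMSO that passed, and without the cell-line term SRSF3 at 200 nM alone did.

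SRSF1 and SRSF3 are examples of the genes low at both doses, and SRSF4 of those low at the high dose alone. SRSF10 had the highest mean change at 200 nM. The promoters of these 4 SR protein genes are shown so that the letters around the start can be set beside these patterns. Each runs from 250 bases before to 50 bases after a transcription start listed by RefSeq on GRCh38.p14, 5′ to 3′ on the gene's strand. Capitals mark matches, on either strand, to motifs none of which contains another. These were TATAAA (the TATA box), CCAAT (which NF-Y binds), GGGCGG (the GC box of Sp1) and TGACG (the core of sites for CREB). The others were GCCATNTT (the letters of YY1 sites) and GGAAGGAA (only 2 units of the GGAA repeat that ETS fusions bind). The positions are chr17:58007197-58007496 on the minus strand for SRSF1, chr6:36594112-36594411 on the plus strand for SRSF3, chr1:29181851-29182150 on the minus strand for SRSF4 and chr1:23980278-23980577 on the minus strand for SRSF10.
SRSF1: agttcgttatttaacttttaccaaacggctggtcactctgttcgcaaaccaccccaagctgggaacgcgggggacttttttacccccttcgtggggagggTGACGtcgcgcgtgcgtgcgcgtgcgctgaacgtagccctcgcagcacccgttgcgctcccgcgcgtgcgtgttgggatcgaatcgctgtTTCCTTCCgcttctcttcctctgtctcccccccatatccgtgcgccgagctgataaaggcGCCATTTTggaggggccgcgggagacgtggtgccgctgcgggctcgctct
SRSF3: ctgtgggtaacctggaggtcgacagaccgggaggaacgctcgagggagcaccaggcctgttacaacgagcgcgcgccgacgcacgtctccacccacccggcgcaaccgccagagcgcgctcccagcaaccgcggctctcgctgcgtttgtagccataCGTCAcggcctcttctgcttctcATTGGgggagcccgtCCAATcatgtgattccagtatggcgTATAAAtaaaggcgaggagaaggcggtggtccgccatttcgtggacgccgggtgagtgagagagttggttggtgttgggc
SRSF4: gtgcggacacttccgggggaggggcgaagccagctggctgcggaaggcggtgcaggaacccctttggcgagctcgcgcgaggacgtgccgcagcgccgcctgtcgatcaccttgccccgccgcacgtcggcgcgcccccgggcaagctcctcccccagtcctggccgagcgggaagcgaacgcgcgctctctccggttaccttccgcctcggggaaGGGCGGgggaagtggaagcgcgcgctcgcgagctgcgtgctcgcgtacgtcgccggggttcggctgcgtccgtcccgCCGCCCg
SRSF10: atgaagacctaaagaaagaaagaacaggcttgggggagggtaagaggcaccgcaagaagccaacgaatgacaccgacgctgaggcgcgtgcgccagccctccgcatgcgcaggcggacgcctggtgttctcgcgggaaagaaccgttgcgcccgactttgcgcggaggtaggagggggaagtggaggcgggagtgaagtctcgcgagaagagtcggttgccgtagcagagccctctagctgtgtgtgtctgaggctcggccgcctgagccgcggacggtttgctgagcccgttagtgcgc
SRSF3 held a TATA box, 2 CCAAT matches and 1 TGACG match. SRSF1 held 1 TGACG match, 1 GGAAGGAA match upstream of the start and a YY1-type match right after the start. SRSF4 held 2 GC boxes, and SRSF10 no match at all to these motifs. GC content ran from 62.0% in SRSF1 to 74.7% in SRSF4, and the 4 windows held 30 to 48 CpG pairs, against a median of 14 over all 35116 promoters. The median was 30 over the SR promoters and 29 over the hnRNP promoters, and none was computed for active genes.

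**Figure D2:**
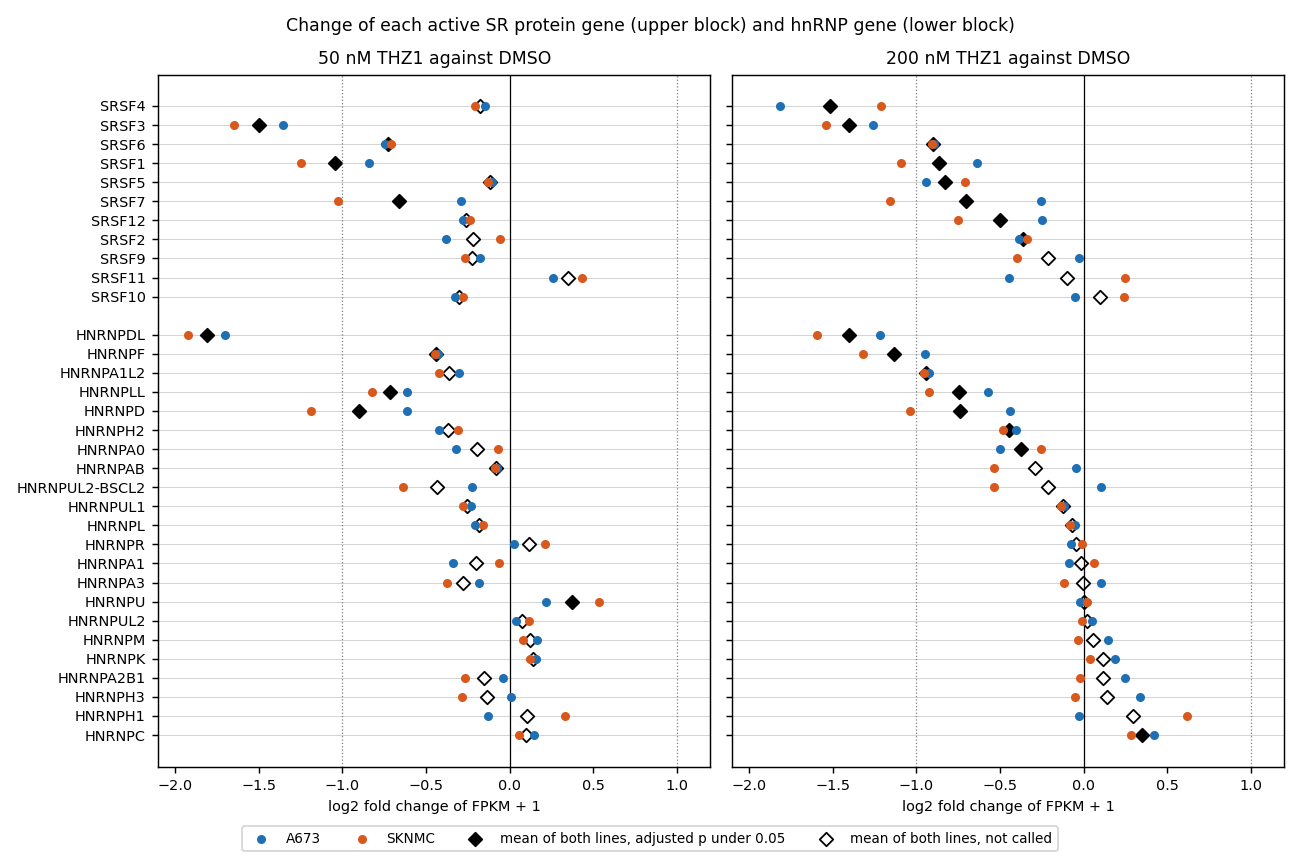
Log2 fold change of FPKM + 1 against DMSO of the same line at 50 nM (left) and 200 nM THZ1 (right) for the 33 active genes, blue for A673, orange for SKNMC, with diamonds for the mean of both lines, filled where limma gave an adjusted p under 0.05. SR proteins (upper block) are filled in 4 of 11 rows at 50 nM and in 8 of 11 at 200 nM, and hnRNPs (lower block) in 5 of 22 and 8 of 22.

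Among the hnRNPs, 4 of 22 fell and 1 rose at 50 nM, and 7 of 22 fell and 1 rose at 200 nM. Against the shares of all genes given above, 18.2% and 31.8% of hnRNPs that fell lie below 33.5% and 47.6%. Scaling mattered even more than for the SR proteins. After division by the 75th percentile 3 fell and 6 rose at 50 nM, and 3 fell and 13 rose at 200 nM, with all genes as given above for that scaling. After division by the ribosomal protein median 13 fell at 50 nM and 18 fell at 200 nM, with none that rose. Of 11572 genes, 5666 fell and 139 rose at 50 nM under the ribosomal scaling, and 8304 fell and 67 rose at 200 nM. The share of hnRNPs that fell was then above that of all genes. HNRNPDL, HNRNPF and HNRNPA1L2 fell at 200 nM under each of these scalings.

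HNRNPDL (hg19 chr4:83343716-83351294, minus strand), a relative of HNRNPD that binds AU-rich RNA and regulates its own splicing, had the lowest estimate of all members at 50 nM. It stood at 144, 43.7 and 61.5 FPKM in A673 and at 254, 66.4 and 83.6 FPKM in SKNMC, and the lowest library of each line was the low dose. The log2 fold change was -1.81 ± 0.13 at 50 nM (adjusted p = 2.45e-05) and -1.41 ± 0.13 at 200 nM (adjusted p = 1.35e-05). The gain from the low to the high dose was 0.41 ± 0.13 (adjusted p = 0.0476), and this call was lost without either 50 nM library (0.42 without that of A673 and 0.39 without that of SKNMC) or the A673 200 nM library (0.27). HNRNPD itself (AUF1, a factor in the decay of AU-rich mRNA) lies 48.1 kb from HNRNPDL on chromosome 4 (hg19) and moved in the same direction. It stood at 168, 110 and 124 FPKM in A673 and at 356, 156 and 173 FPKM in SKNMC, with a log2 fold change of -0.90 ± 0.15 at the low dose (adjusted p = 0.0009) and -0.74 ± 0.15 at the high dose (adjusted p = 0.00172).

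HNRNPF (chr10:43881064-43904614, minus strand), which binds G-rich RNA next to splice sites, followed the dose. Its level was 138, 102 and 71.0 FPKM in A673 and 108, 78.5 and 42.5 FPKM in SKNMC, so the libraries were ordered by dose in both lines. The log2 fold change was -0.44 ± 0.14 at 50 nM (adjusted p = 0.0259) and -1.13 ± 0.14 at 200 nM (adjusted p = 5.65e-05), and the step between doses was -0.69 ± 0.14 (adjusted p = 0.00419). The step was no longer called without the SKNMC 50 nM library (-0.61), and the low-dose call was lost without the A673 50 nM library (-0.36), the SKNMC 50 nM library (-0.52) or the SKNMC DMSO library (-0.34). Of its close kin, HNRNPH2 is overlapped on the same strand by the entry RPL36A-HNRNPH2. That entry stood at 0.000175, 4.61 and 0.167 FPKM in A673 and at 0.306, 9.02 and 1.66 FPKM in SKNMC. It shares 12.1% of the HNRNPH2 windows, and how reads were divided between the entries was not tested. HNRNPH2 itself was at 40.4, 29.8 and 30.2 FPKM in A673 and at 66.6, 53.6 and 47.3 FPKM in SKNMC. Its log2 fold change was -0.37 ± 0.14 at 50 nM (adjusted p = 0.0549) and -0.45 ± 0.14 at 200 nM (adjusted p = 0.0175). That call survived only the loss of the A673 200 nM library: it was lost without either DMSO library (-0.44 without that of A673 and -0.46 without that of SKNMC), without either 50 nM library and without the SKNMC 200 nM library (-0.38).

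HNRNPLL, known from the control of CD45 splicing in lymphocytes, was at 32.4, 20.8 and 21.5 FPKM in A673 and at 30.0, 16.6 and 15.3 FPKM in SKNMC. Its log2 fold change was -0.72 ± 0.16 at 50 nM (adjusted p = 0.00416) and -0.75 ± 0.16 at 200 nM (adjusted p = 0.00201), with the low-dose call lost without either 50 nM library (-0.73 without that of A673 and -0.70 without that of SKNMC). It lies 140 kb from SRSF7 on chromosome 2. HNRNPA1L2, a retrocopy of HNRNPA1, read 3.39, 2.56 and 1.32 FPKM in A673 and 5.16, 3.59 and 2.17 FPKM in SKNMC (-0.94 ± 0.18 at 200 nM, adjusted p = 0.00127), but all of its 100-base windows occur in other genes, so its value is uncertain. Its step from 50 to 200 nM (-0.58 ± 0.18, adjusted p = 0.0426) was lost without any single THZ1 library (-0.52 and -0.56 without those of A673, -0.63 and -0.59 without those of SKNMC). HNRNPA0 fell at 200 nM (-0.38 ± 0.12, adjusted p = 0.0204), a call lost without the A673 DMSO library (-0.25), the A673 200 nM library (-0.32) or either 50 nM library.

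HNRNPC and HNRNPU were the hnRNPs that rose. HNRNPC (chr14:21677294-21737653, minus strand), which binds uridine-rich stretches of nascent RNA as a tetramer, was at 517, 571 and 692 FPKM in A673 and at 495, 515 and 601 FPKM in SKNMC. The 200 nM library was the highest in both lines, with a log2 fold change of 0.35 ± 0.09 (adjusted p = 0.00574), a call that held without any single library but turned to -0.14 when libraries were divided by the ribosomal protein median. HNRNPU, a nuclear scaffold protein, was at 235, 273 and 232 FPKM in A673 and at 233, 337 and 236 FPKM in SKNMC, high at the low dose only. It rose by 0.37 ± 0.11 at 50 nM (adjusted p = 0.0217) and was lower again at 200 nM than at 50 nM (-0.37 ± 0.11, adjusted p = 0.0341). Both calls were lost without the 50 nM library of A673 (0.52 and -0.52) or of SKNMC (0.23 and -0.23), the first also without the SKNMC DMSO library (0.29) and the second without the SKNMC 200 nM library (-0.32).

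The 3 most abundant hnRNPs other than HNRNPC, and several weaker ones, did not pass at either dose. HNRNPA1, the classic antagonist of SRSF1, stood at 938, 741 and 882 FPKM in A673 and at 1147, 1098 and 1197 FPKM in SKNMC, and the groups overlapped. Its log2 fold change was -0.20 ± 0.09 at 50 nM (adjusted p = 0.0884) and -0.01 ± 0.09 at 200 nM, with an interval from -0.20 to 0.18. Of its transcript windows, 8.28% are shared with other genes, 13 in all. HNRNPA2B1 (599 to 897 FPKM), HNRNPK (421 to 510 FPKM), HNRNPL (202 to 246 FPKM), HNRNPM (190 to 264 FPKM), HNRNPR (123 to 177 FPKM), HNRNPUL1 (88.2 to 131 FPKM) and HNRNPUL2 (44.5 to 48.7 FPKM) had estimates between -0.25 and 0.14 at both doses, and none passed. HNRNPA3 and HNRNPAB likewise did not pass (-0.28 and -0.08 at 50 nM, -0.01 and -0.29 at 200 nM). The read-through entry HNRNPUL2-BSCL2 (10.9 to 22.2 FPKM) overlaps HNRNPUL2 and shares 97.5% of its windows with other genes, so its values are uncertain. HNRNPUL2 in turn shares 42.6% of its windows with that entry, and HNRNPA3 shares 52.9% with other genes.

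HNRNPH1, a G-run binding splicing regulator, and HNRNPH3 showed no shared direction. HNRNPH1 was at 306, 280 and 300 FPKM in A673 and at 335, 422 and 516 FPKM in SKNMC, so the SKNMC libraries were ordered by dose and those of A673 were not. Its estimate at 200 nM was 0.30 ± 0.14 (adjusted p = 0.0931). HNRNPH3 was at 139, 140 and 176 FPKM in A673 and at 115, 93.8 and 111 FPKM in SKNMC (0.14 ± 0.13 at 200 nM, adjusted p = 0.374).

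The promoters of the hnRNP with the lowest and the hnRNP with the highest change at 200 nM are shown in the same form: HNRNPDL at chr4:82430413-82430712 (the more upstream of 2 listed starts) and HNRNPC at chr14:21269393-21269692, both on the minus strand of GRCh38.p14.
HNRNPDL: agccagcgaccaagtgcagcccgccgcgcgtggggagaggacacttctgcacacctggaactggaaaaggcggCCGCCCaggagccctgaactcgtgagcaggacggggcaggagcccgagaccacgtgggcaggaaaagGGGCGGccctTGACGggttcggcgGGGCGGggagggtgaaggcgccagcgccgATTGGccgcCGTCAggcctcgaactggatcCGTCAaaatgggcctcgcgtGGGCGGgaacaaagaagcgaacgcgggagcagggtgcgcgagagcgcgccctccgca
HNRNPC: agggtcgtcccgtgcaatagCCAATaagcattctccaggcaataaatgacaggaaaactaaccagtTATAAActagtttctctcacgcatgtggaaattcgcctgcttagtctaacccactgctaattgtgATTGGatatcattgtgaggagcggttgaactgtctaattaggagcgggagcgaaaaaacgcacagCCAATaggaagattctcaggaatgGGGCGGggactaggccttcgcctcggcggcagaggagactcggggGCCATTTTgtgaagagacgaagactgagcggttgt
HNRNPDL held 1 CCAAT match, 4 GC boxes and 3 TGACG matches in a window of 69.7% GC. HNRNPC held 3 CCAAT matches, a GC box and a YY1-type match in a window of 49.3% GC. HNRNPC also held the letters TATAAA, but in the far upstream part of the window and not near the start. A promoter was found for 32 of the 34 genes (not for HNRNPA1 and SRSF2). CCAAT was present in the promoter of 19 of 22 hnRNP genes and of 1 of 10 SR protein genes, SRSF3. Counted per listed start it was in 21 of 33 hnRNP windows (63.6%) and in 1 of 12 SR windows (8.33%), against 34.6% of all 35116 promoters. Among 9162 active protein-coding genes with a listed promoter, 43.6% had it in at least 1. For the other motifs the share of those active genes is given first and that of all promoters second. GGGCGG was in 18 of 22 hnRNP genes and 5 of 10 SR protein genes (78.0% and 45.0%), TGACG in 13 and 5 (41.1% and 24.6%), TATAAA in 3 and 3 (8.22% and 11.5%), GCCATNTT in 4 and 1 (13.1% and 6.58%), and GGAAGGAA in 0 and 2, the latter SRSF1 and SRSF7 (4.91% and 3.67%). At the first listed start alone, GGGCGG was in 17 of 22 hnRNP and 5 of 10 SR protein genes. CCAAT was then in 15 of 22 and 1 of 10. The shares of active genes above take any listed start, and none was computed for the first start alone. Genes with several listed starts had more chances of a match, and a match is a description of letters, not of binding. The hnRNP counts take in HNRNPCL1, which was not active. They also count HNRNPUL2 and HNRNPUL2-BSCL2 apart, whose 5′ ends lie close together on chromosome 11 (hg19 62494821 and 62494856). All of these held CCAAT.

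**Figure D3:**
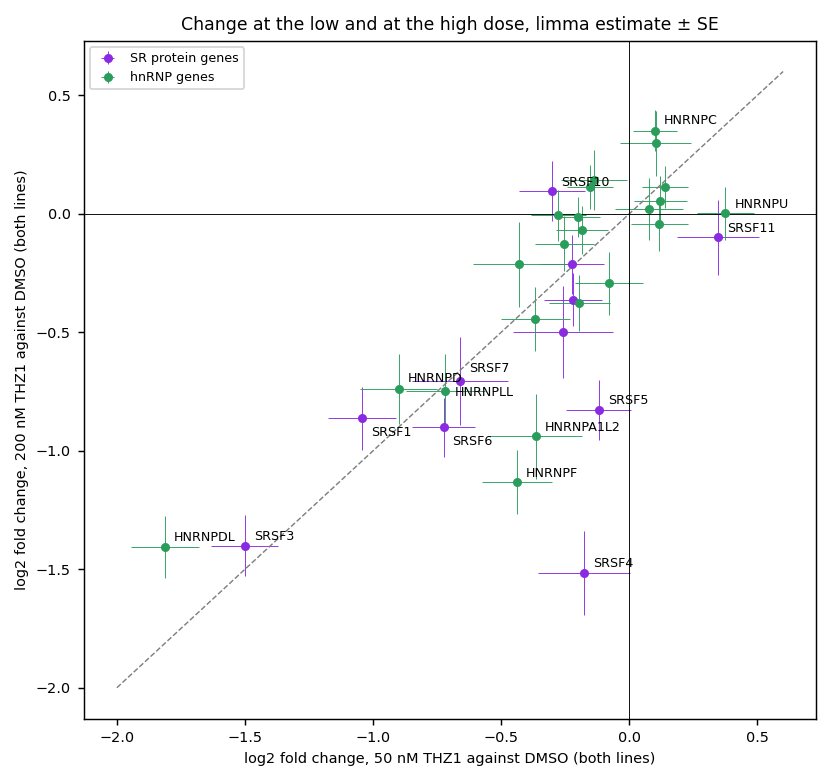
Limma estimate ± SE of the log2 fold change over both lines at 50 nM (x axis) and 200 nM THZ1 (y axis), violet for 11 SR proteins and green for 22 hnRNPs, with the dashed line of equal change. SRSF4 (-0.18 and -1.52), SRSF5 (-0.12 and -0.83) and HNRNPF (-0.44 and -1.13) lie far below the line, and HNRNPDL (-1.81 and -1.41) above it.

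The high dose thus did not lower every member further. Set directly against 50 nM, 200 nM gave a lower value for 5 of 11 SR proteins in A673 and 8 of 11 in SKNMC, and for 6 and 11 of 22 hnRNPs, where 51.7% and 62% of all active genes were lower. In both lines alike, 5 SR proteins were lower and 3 were higher at 200 nM, and 6 hnRNPs were lower and 11 higher. Over both lines the fit called SRSF4, SRSF5, HNRNPF, HNRNPA1L2 and HNRNPU lower and SRSF10 and HNRNPDL higher at the high dose, 2 of 11 SR proteins and 3 of 22 hnRNPs lower against 20.1% of all genes, and 1 and 1 higher against 2.63%. Of these 7, only SRSF4 held without any single library and under all 3 other scalings, and none passed without the cell-line term or without the filter on low values.

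Within a line, 1 of 11 SR proteins was at least 2-fold lower in A673 at 50 nM, SRSF3, where 15.9% of active genes were, and 2 were at 200 nM, SRSF3 and SRSF4 (25.3%). In SKNMC there were 3 at 50 nM, SRSF1, SRSF3 and SRSF7 (15.8%), and 4 at 200 nM, those 3 and SRSF4 (27.3%). HNRNPDL was 2-fold lower in all 4 comparisons, as was SRSF3, and 8.7% of genes active in both lines were. SKNMC added HNRNPD at both doses and HNRNPF at 200 nM, and no member was 2-fold higher, where 0.343% and 0.126% of active genes were in A673 and 0.471% and 0.462% in SKNMC. Past 1.5-fold lower were 3 and 5 SR proteins in A673 (background 31.8% and 41.1%) and 4 and 7 in SKNMC (33.5% and 48%), and 3, 3, 4 and 5 hnRNPs in the same order. Counting any drop, 10, 11, 10 and 9 of the 11 SR proteins and 15, 14, 15 and 17 of the 22 hnRNPs were below DMSO, next to 70.1%, 70.4%, 73% and 80.8% of active genes. For the low and the high dose in turn, the median log2 fold change of SR proteins was -0.29 and -0.45 in A673, and -0.27 and -0.75 for SKNMC. That of hnRNPs was -0.19 and -0.05 in A673, and -0.21 and -0.10 for SKNMC. All active genes had -0.27 and -0.40 in A673, and -0.32 and -0.55 for SKNMC. At 200 nM the hnRNP median was thus above that of all genes in both lines and the SR median below it. For the SR median in A673 that gap was small (-0.45 against -0.40). At 50 nM the SR median lay below that of all genes in A673 and above it in SKNMC.

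**Figure D4:**
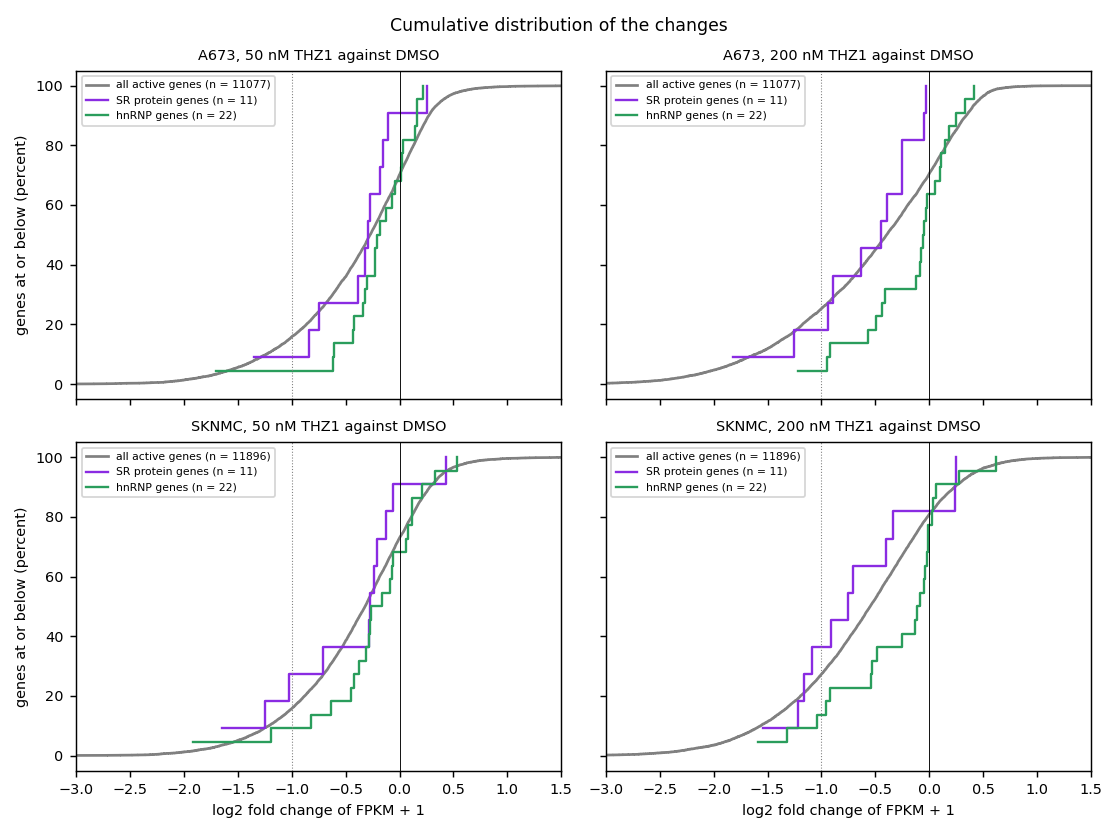
Percent of genes (y axis) at or below a log2 fold change of FPKM + 1 (x axis) for all active genes (grey), SR proteins (violet, n = 11) and hnRNPs (green, n = 22), in A673 (top) and SKNMC (bottom) at 50 nM (left) and 200 nM (right). At 200 nM the hnRNP curve runs to the right of the grey curve below 0 in both lines, with medians of -0.05 and -0.10 against -0.40 and -0.55.

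Ratios within a library do not move with its scaling. The summed FPKM of the SR proteins over that of the hnRNPs in A673 was 0.265 with DMSO, then 0.211 at the low dose and 0.181 at the high dose, and SKNMC had 0.266, 0.211 and 0.184. The lines had almost the same ratio at each dose, and 79.6% and 68.3% of the DMSO ratio was left in A673 and 79.2% and 69.2% in SKNMC. The SR sum went from 1399 to 1028 and 974 FPKM in A673 and from 1512 to 1095 and 996 FPKM in SKNMC, while the hnRNP sum stayed within 4868 to 5673 FPKM. SRSF1 over HNRNPA1 went from 0.256 to 0.180 and 0.175 in A673, and from 0.193 to 0.0845 and 0.0866 in SKNMC, so 68.2% and 44.8% of the DMSO ratio was left at 200 nM. No p-value is given for these ratios, which are scores over chosen members.

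**Figure D5:**
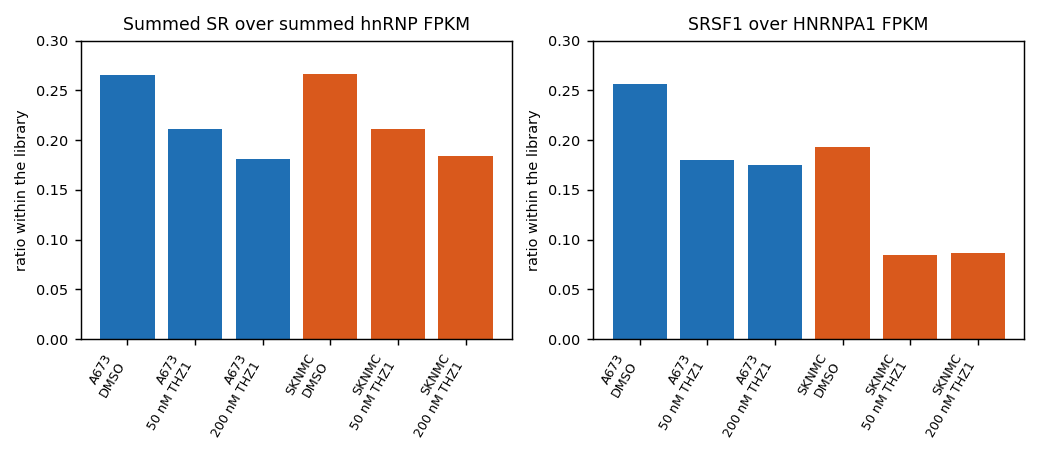
Summed SR protein FPKM over summed hnRNP FPKM (left) and SRSF1 over HNRNPA1 FPKM (right), 1 bar per library, blue for A673 and orange for SKNMC, without error bars since each condition has 1 library. The left ratio goes from 0.265 and 0.266 with DMSO to 0.181 and 0.184 at 200 nM, and the right ratio is lower in SKNMC than in A673 in each condition.

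The lines resembled each other in the ranking of the changes. Over the 33 active members the changes in A673 and SKNMC had a Spearman correlation of 0.79 at 50 nM and 0.73 at 200 nM, as a description across genes that share libraries. The largest gaps between the lines at 200 nM were SRSF7 (-0.25 in A673 and -1.16 in SKNMC), SRSF11 (-0.45 and 0.24), HNRNPH1 (-0.03 and 0.62), HNRNPUL2-BSCL2 (0.11 and -0.53) and SRSF4 (-1.82 and -1.21). These gaps were not tested, since the fit has no library left over for them. With DMSO, SKNMC had more SRSF12 (1.42 on the log2 scale), HNRNPD (1.08), HNRNPDL (0.81), HNRNPH2 (0.71) and SRSF11 (0.68), and 2 of 33 members differed by 2-fold or more, where 23.5% of genes active in either line did. Gene length on the genome (11 SR proteins, 3.26 to 47.4 kb) ran with the change at 50 nM, with a Spearman correlation of 0.76 (A673) and 0.47 (SKNMC), short genes being lower, and not at 200 nM (-0.19 and 0.19). Over all active genes the low-dose correlation was 0.18 and 0.18, and over hnRNPs 0.17 and 0.01.

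The partners of these families were examined as 3 further lists. Of 18 SR kinases, import receptors and SR-related proteins, 1 fell and 5 rose at 50 nM, and 12 fell and 1 rose at 200 nM, with medians of 0.09 and -0.59 on the log2 scale. Over all genes, 33.5% fell and 4.86% rose at 50 nM, and 47.6% fell and 5.91% rose at 200 nM. CLK1, a kinase that phosphorylates SR proteins, rose from 20.0 to 34.1 FPKM in A673 and from 34.4 to 79.0 FPKM in SKNMC at 50 nM (0.96 ± 0.19, adjusted p = 0.00293), and stood at 10.8 and 35.5 FPKM at 200 nM, where it did not pass with an adjusted p of 0.111 (CLK1 was picked with its values in view). TRA2B, SRRM1, SRRM2 and LUC7L3 were the others that rose at 50 nM. At 200 nM the lowest were CLK4 (-1.24 ± 0.19), CLK2 (-1.17 ± 0.21) and the SR-related cyclophilin PPIG (-1.16 ± 0.14), with adjusted p of 0.000328, 0.00079 and 6.97e-05. The highest were the spliceosome protein SRRM2 (0.36 ± 0.13, adjusted p = 0.0399) and LUC7L3, a U1 snRNP partner (0.08 ± 0.13, adjusted p = 0.646). Set directly against 50 nM, 10 of the 18 were lower at 200 nM and none was higher, where 20.1% of all genes were lower and 2.63% higher.

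Of 12 hnRNPs known under other symbols, 3 fell and 2 rose at 50 nM, and 5 fell and none rose at 200 nM, which for the genes that fell is below the share of all genes at 50 nM (33.5%) and near it at 200 nM (47.6%). TARDBP (TDP-43), a self-limiting RNA-binding protein, went from 140.2 to 50.1 FPKM in A673 and from 147 to 81.8 FPKM in SKNMC at 200 nM (-1.15 ± 0.15, adjusted p = 0.000111). PCBP1, a poly(C)-binding protein (-1.06 ± 0.12, adjusted p = 4.25e-05), and RBMX, or hnRNP G (-0.64 ± 0.12, adjusted p = 0.00106), fell too. The highest were RALY, a relative of HNRNPC (0.28 ± 0.12, adjusted p = 0.0653), and PTBP2, the neuronal polypyrimidine tract protein (0.22 ± 0.15, adjusted p = 0.252). Of 27 core spliceosome genes, 6 fell and 4 rose at 50 nM, and 8 fell and 1 rose at 200 nM, so fewer fell than the 33.5% and 47.6% of all genes. PRPF4, of the U4/U6 snRNP, went from 29.7 to 5.98 FPKM in A673 and from 18.3 to 3.06 FPKM in SKNMC at 200 nM (-2.19 ± 0.17, adjusted p = 5.98e-06). U2AF1, which reads the 3′ splice site (-1.24 ± 0.17, adjusted p = 0.000118), and PRPF3, a partner of PRPF4 (-1.15 ± 0.18, adjusted p = 0.000343), followed. The Sm protein SNRPD2 rose (0.44 ± 0.10, adjusted p = 0.00289), and the helicase SNRNP200 was at 0.28 ± 0.12 (adjusted p = 0.0786).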

How the data were processed

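RNA of A673 and SKNMC cells was sequenced by the study (TruSeq libraries, HiSeq2000, paired ends of 100 bp), mapped to hg19 by STAR and quantified per Ensembl gene. The labels name Cufflinks and the paper's methods name StringTie, and tool versions are not given in the sources used here. The deposited FPKM values, made by the authors, cover 27420 genes. The title of the table speaks of averages, but the labels give 1 library per condition, which was taken as n. The 4 columns of the authors' log2 fold changes were not used. Read depth is unknown. Low values put the THZ1 libraries roughly at 89.2% to 97.6% of the depth of their DMSO library. FPKM was read as log2(FPKM + 1), which understates changes of weak genes. Genes with a mean above 1 FPKM over the 6 libraries were fitted with limma 3.58.1 in R 4.3.3 (dose plus cell line as the block, eBayes with trend, 2 residual and 8.51 prior degrees of freedom). The fit was first run on simulated data with equal noise in all genes and no difference in response between lines. That setting is unlike these data, so it cannot vouch for the calls. The cell line pairs the libraries by design. Members and lists were chosen with earlier results of these data known. The motifs were chosen after values and sequences had been seen, and promoters stand in place of the planned protein sequences, which were not used here. Members are named in full, with all libraries for SRSF1, HNRNPA1 and, per family, the 4 lowest and 2 highest at 200 nM, and for others after their values were seen, and other lists by their 3 lowest and 2 highest. Shared sequence was counted over 100-base windows of GENCODE release 44 transcripts on GRCh37, which is not the Ensembl annotation behind the FPKM. By the deposited coordinates no listed gene overlaps SRSF9 or HNRNPA3. Whether the window shares apply to the deposited FPKM was not tested. Whether counting used strand is not stated, and several members overlap genes on the other strand.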

Additional observations from a re-analysis of the deposited data

Results flagged for a closer look

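HNRNPH1 had opposite signs in the lines at both doses, with A673 close to 0 at the high dose: A673 had log2 fold changes of -0.13 (50 nM) and -0.026 (200 nM), where SKNMC had 0.33 and 0.62. HNRNPH3 had the reverse pattern, with 0.011 and 0.34 for A673 against -0.29 and -0.052 for SKNMC. The signs depend on the scaling. Divided by the 75th percentile, HNRNPH1 in A673 was 0.15 and 0.37, the sign of SKNMC, and HNRNPH3 in SKNMC was 0.0090 and 0.54, the sign of A673. Divided by the ribosomal protein median, HNRNPH1 in SKNMC was -0.031 and -0.0010 and HNRNPH3 in A673 -0.18 and -0.026, so that both genes were below 0 in both lines. With 1 library per condition the difference between lines was not tested. The signs of HNRNPH1 were shared by 93 of 10574 genes active in both lines (0.880%) and those of HNRNPH3 by 464 (4.39%).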

How the results depend on the processing

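Without the replicate block (no line term, though each line pairs its 3 libraries), 1 SR protein fell at 200 nM and none of the other members' calls passed: 0 at 50 nM, 0 between the doses and 0 hnRNPs at 200 nM, with 5 SR proteins and 4 hnRNPs lower at an unadjusted p under 0.05 at 200 nM. Over all genes that fit called 0 at 50 nM (1745 lower and 80 higher unadjusted) and 807 lower and 7 higher at 200 nM. Without the filter on low values (27420 genes tested) 2 SR proteins and 2 hnRNPs fell at 200 nM and 0 in the other contrasts. Over all genes, 1902 fell at 200 nM, 42 at 50 nM and 1 between the doses. The cause was not tested. Leaving out 1 library, after which the lone library of its condition is assumed to vary like the others, gave 3 to 5 SR proteins and 2 to 8 hnRNPs lower at 50 nM, 6 to 9 and 5 to 7 at 200 nM, and 1 (without the A673 50 nM library) to 3 and 0 to 3 between the doses. Hence the hnRNP count was 7 without the A673 DMSO library, 8 without either 200 nM library and 2 without either 50 nM library at 50 nM, against 4, and between the doses it was 1 without the A673 50 nM or the SKNMC 200 nM library and 0 without the SKNMC 50 nM library, against 3. Dividing by the 75th percentile shifted the median over active genes by 0.24 and 0.35 (A673) and by 0.26 and 0.50 (SKNMC) at 50 and 200 nM, and dividing by the ribosomal protein median by -0.18, -0.33, -0.31 and -0.50, so directions are relative to the scaling. Under the 75th percentile 4 SR proteins and 3 hnRNPs fell at 200 nM (3126 of all 11499 genes) and 1 hnRNP between doses (1688 of all genes). HNRNPA0 (0.12), HNRNPH2 (0.043) and SRSF2 (0.13) changed sign at 200 nM under it. Under the ribosomal median 8 SR proteins and 13 hnRNPs fell at 50 nM (5666 of all 11572 genes) and 18 hnRNPs at 200 nM (8304 of all genes), and HNRNPC turned to -0.14. The number of SR proteins 2-fold lower was then 2 and 5 in A673 (50 and 200 nM) and 8 in SKNMC at 200 nM. For hnRNPs it was 3 in A673 and 8 in SKNMC at 200 nM. As shares, the SR counts at 200 nM were above that of all active genes under this scaling in both lines. The SR count in A673 at 50 nM and both hnRNP counts were below it. Under the ribosomal median 9 SR proteins and 15 hnRNPs in A673 and 19 hnRNPs in SKNMC were lower at 200 than at 50 nM. The 75th percentile gave 1 SR protein and 0 hnRNPs 2-fold lower in A673 at 200 nM, 1 and 1 in SKNMC at 50 nM, and 0 and 1 in SKNMC at 200 nM. As shares, these were below that of all active genes under that scaling, though only just for SR proteins in SKNMC at 50 nM. It also gave 3 SR proteins and 4 hnRNPs lower at 200 than at 50 nM in SKNMC. For the counts at 200 against 50 nM under these scalings no share of all active genes is given. A 1.5-fold threshold gave 3 SR proteins and 3 hnRNPs in A673 at 50 nM, 5 and 3 at 200 nM, 4 hnRNPs in SKNMC at 50 nM, and 7 and 5 at 200 nM, and a pseudocount of 0.1 gave 2 hnRNPs in A673 at 200 nM. The SR median minus the hnRNP median at 50 nM was -0.13 in A673 under that pseudocount and under the 75th percentile, against -0.10, and in SKNMC -0.11 with no filter and above 10 FPKM, against -0.06. The summed ratio kept its direction: without SRSF2 and HNRNPA1 76.3% and 65.4% of the DMSO ratio was left in A673 and 74.1% and 67.6% in SKNMC, and with means of log2 values 89.0% and 72.8%, and 85.8% and 77.3%. SRSF3 at 200 nM passed under all 13 alternatives of the fit.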
